A study of Mus musculus with 28 samples.

Results

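Endothelial cells line every vessel of the lung, and 36 genes taken as their markers are described here across 4 inhalation exposures and 2 durations. Some of these genes are also expressed in other cells, as given below. The members are the rows of the deposited count table whose mouse Ensembl identifier maps to a set list of symbols for endothelial junction proteins, receptors, surface and secreted proteins and transcription factors. That list was chosen with earlier results of these data known, so the counts below are descriptive and not an independent test. They make up 36 of 35880 genes in the table, and all 36 passed the low-count filter. The study exposed male wild type C57BL/6 mice, an inbred laboratory strain, aged 8 to 12 weeks. The groups are Sham (named air in the treatment protocol), CB (10 mg/m3 of carbon black, fine soot-like carbon particles), O3 (ozone, an oxidant gas, at 2 ppm) and CB-O3 (both together), with 3 hours for each exposure. Animals of the Day1 groups were exposed 1 time and those of the Day4 groups 4 times, with 4 libraries in each Day1 group and 3 in each Day4 group, or 28 in all. The material was poly(A) RNA of whole lung homogenate, so a level is an average over all cells of the lung. Whether 1 library stands for 1 mouse is not stated in the labels, and the p-values then cover only the variation among libraries, which may be technical. Day and number of exposures cannot be told apart.

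The endothelium holds blood in the vessel with adherens and tight junctions. It keeps its identity through ETS and SOXF transcription factors, grows and survives on vascular endothelial growth factor (VEGF), and is kept quiescent by angiopoietin and bone morphogenetic protein (BMP) receptors. In the lung it forms the dense alveolar capillary bed across which gas is exchanged next to the thin alveolar type 1 cells.

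Libraries summed to between 5.14 M and 9.72 M estimated counts, and a count of 0 allows up to 3 counts, which is 0.309 to 0.584 CPM (counts-per-million units) by library and covers counting error only. Levels are CPM scaled by the trimmed mean of M values (TMM), and SD is the standard deviation between libraries. The tissue label was met by the marker lists: 9 alveolar type 1 genes summed to between 7371 and 9244 CPM and 9 alveolar type 2 genes to between 23413 and 30480 CPM over all 28 libraries. Skeletal muscle genes, which the lung itself does not express strongly, summed to over 100 CPM in 4 libraries, namely Sham Day1 replicate 2 (1669 CPM), O3 Day1 replicate 2 (856 CPM), CB Day4 replicate 3 (425 CPM) and CB-O3 Day4 replicate 3 (709 CPM), against at most 23.7 CPM elsewhere. Of these libraries, O3 Day1 replicate 2 was the lowest of its group in 29 of 36 members and CB-O3 Day4 replicate 3 in 31 of 36. CB Day4 replicate 3 was the lowest in 22 and Sham Day1 replicate 2 in 16. The same counts over all genes are not given. In the opposite direction, Sham Day4 replicate 1 was the highest of its group in 28 members and CB-O3 Day4 replicate 1 in 26. The part of muscle RNA in the members' values was not tested.

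Endothelial genes fell after ozone and, in larger number, after co-exposure, and no member was called higher in any exposure against sham. Higher calls made up 1.57%, 6.81% and 10.1% of all genes at day 1 and 0.161%, 11.7% and 17.7% at day 4, for carbon black, ozone and co-exposure. At day 4 the called members covered every role in the set, from junction proteins to transcription factors. The comparison of each exposure with the sham group of its day used edgeR's quasi-likelihood test with Benjamini-Hochberg adjustment over 14887 genes and a threshold of 0.05, and a gene past it is described as called, risen or fallen. After 1 exposure to carbon black, 0 of 36 members were called in edgeR, where 1.66% of all genes were called (0.0873% lower), with 6 members at an unadjusted p under 0.05 and 1 called by DESeq2. In that comparison a gene at an edgeR p of 0.0468 ranked 1460 of 14887 by p. After 1 exposure to ozone 10 members fell, against 4.63% of all genes lower, and 6 fell without O3 Day1 replicate 2. After 1 co-exposure 12 members fell, against 9.09% of all genes lower. After 4 carbon black exposures 1 member fell, against 0.047% of all genes lower, a count that was 0 without Sham Day4 replicate 1, 3 without CB Day4 replicate 3 and 3 in DESeq2. At an unadjusted p under 0.05 the members were Egfl7, Esam, Klf2, Ushbp1, Cldn5, Nos3, Tie1, Sox17 and Icam2, each lower. A gene at an edgeR p of 0.0521 there ranked 2329 of 14887 by p. Shares of all genes are not given for DESeq2 or for fits without a library. After 4 ozone exposures 24 members fell, against 9.07% of all genes lower, and after 4 co-exposures 34 members fell, against 16.3% of all genes lower. In bulk lung, fewer endothelial cells and less RNA per endothelial cell cannot be told apart.

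The size of the shift against sham followed the same order. Co-exposure compared directly with ozone, given below, called 0 members in edgeR at either day. The median log2 fold change of the members was -0.11 for carbon black, -0.19 for ozone and -0.27 for co-exposure at day 1. It was 0.03 for carbon black, -0.65 for ozone and -1.01 for co-exposure at day 4. Over all genes tested the median lay between -0.01 and 0.01 in these 6 comparisons. At day 4 the libraries did not overlap, with all exposed libraries below all sham libraries, for 30 of 36 members after ozone and 31 after co-exposure, where 20.6% and 19.5% of all genes lay lower without overlap. The ozone and co-exposure comparisons of a day share their sham libraries, so the 24 members that fell in both at day 4 and the 10 that fell in both at day 1 are not independent counts. The share of all genes that fell in both is not given. It cannot exceed the share lower after ozone, 9.07% at day 4 and 4.63% at day 1. The 2 members that did not pass after 4 co-exposures were Cd34 and Vwf.

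**Figure D1:**
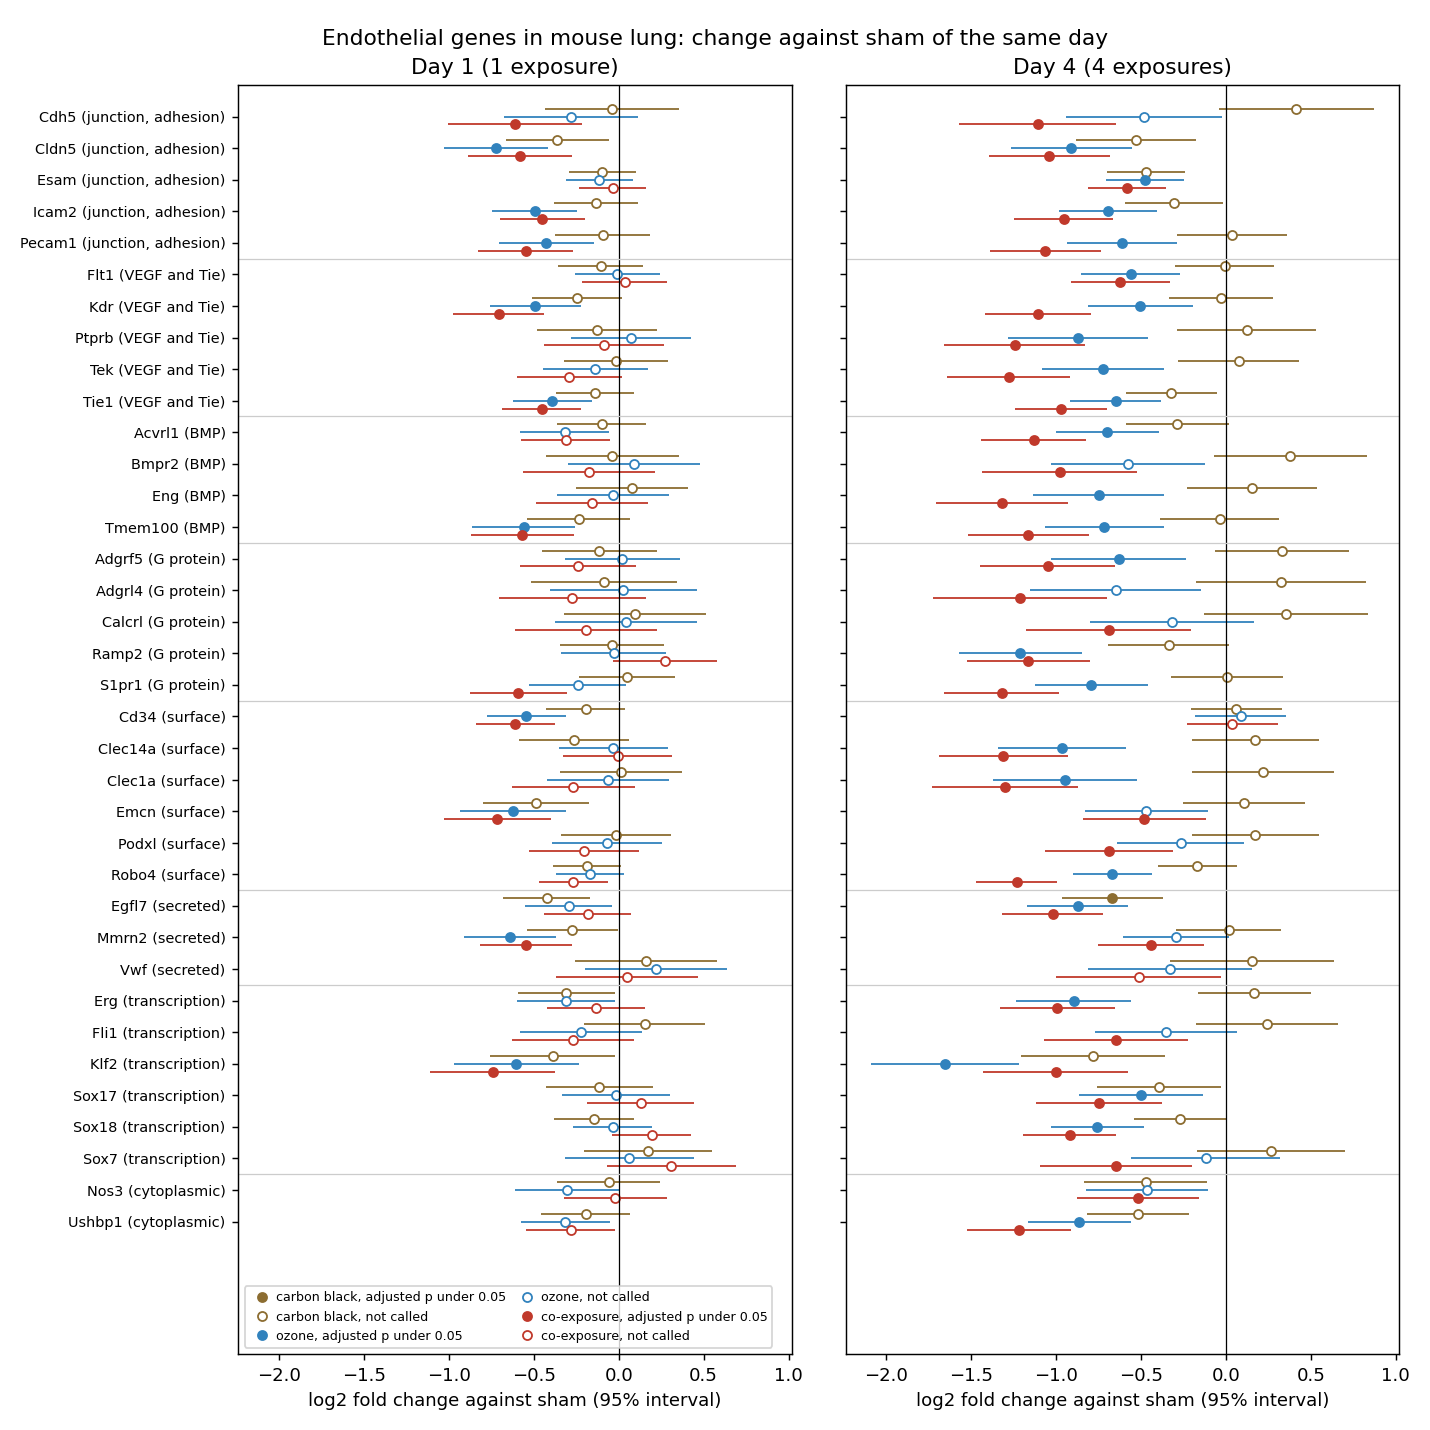
Log2 fold change of each of the 36 endothelial genes against the sham group of its day, with 95% intervals from edgeR, grouped by role; filled points had an adjusted p under 0.05. At day 4 the ozone and co-exposure points lie left of 0 for every gene but Cd34, while the carbon black points scatter on both sides.

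Junction and adhesion genes fell at both days. Pecam1 encodes the adhesion receptor CD31 at contacts between endothelial cells and is also present on platelets and leukocytes (ENSMUSG00000020717, chromosome 11, 106654217 to 106750628 on GRCm38). It stood at 833, 768, 803 and 774 CPM in the Day1 sham libraries, 649, 507, 565 and 644 CPM after ozone and 507, 663, 476 and 531 CPM after co-exposure. Every Day1 ozone and co-exposure library lay below every sham library. At day 4 it stood at 803, 655 and 584 CPM in sham, 452, 441 and 444 CPM after ozone and 412, 327 and 237 CPM after co-exposure, again without overlap. The log2 fold changes were -0.43 ± 0.14 (standard error, SE; adjusted p = 0.0405) and -0.55 ± 0.14 (adjusted p = 0.00575) at day 1, and -0.61 ± 0.16 (adjusted p = 0.00631) and -1.06 ± 0.16 (adjusted p = 1.09e-05) at day 4, for ozone and co-exposure in that order. The Day1 ozone call of Pecam1 was lost in 9 of 16 alternative settings, among them without any one of the 4 sham libraries or O3 Day1 replicate 2, 3 or 4 (adjusted p up to 0.125), and the Day4 ozone call without Sham Day4 replicate 1 (adjusted p = 0.0515).

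Cdh5 encodes VE-cadherin, the adhesion molecule of endothelial adherens junctions (ENSMUSG00000031871, chromosome 8, 104101625 to 104144511). Its Day4 libraries held 828, 649.5 and 602 CPM in sham, 516, 483 and 491 CPM after ozone, and 485, 262 and 218 CPM after co-exposure. Sham was thus above both, but the ozone difference of -0.48 ± 0.22 did not pass (adjusted p = 0.129), while co-exposure passed at -1.11 ± 0.22 (adjusted p = 0.00046). At day 1 co-exposure passed as well, at -0.61 ± 0.19 (adjusted p = 0.0267), a call lost without any one of 4 libraries, namely Sham Day1 replicate 1 or 2 or CB-O3 Day1 replicate 3 or 4 (adjusted p between 0.0535 and 0.104). In CB Day4 replicate 1 Cdh5 reached 1285 CPM, above all other libraries of the study.

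Cldn5, the main claudin of endothelial tight junctions (chromosome 16, 18776847 to 18778262), fell at both days after ozone. The Day1 libraries held 508, 375, 467 and 398 CPM in sham, 295, 215, 292 and 257 CPM after ozone, and 266, 322, 271 and 308 CPM after co-exposure. At day 4 they held 521, 375 and 387 CPM in sham, 229.6, 234 and 218 CPM after ozone and 207, 252 and 164 CPM after co-exposure. Neither exposed group reached the sham range at either day. The log2 fold changes were -0.72 ± 0.15 and -0.58 ± 0.15 at day 1 and -0.91 ± 0.17 and -1.04 ± 0.17 at day 4, for ozone and co-exposure (adjusted p = 0.00198, 0.00705, 0.000412 and 4.8e-05). Icam2, an adhesion ligand for leukocyte integrins, also fell in all 4, by 0.49, 0.45, 0.69 and 0.96 on the log2 scale, and its Day1 ozone call was lost with an exonic length offset (adjusted p = 0.0556). Esam, a junction molecule of endothelium and platelets, did not pass at day 1, at -0.11 ± 0.10 and -0.04 ± 0.10. At day 4 Esam held 243, 230.2 and 228 CPM in sham, 163, 168 and 172 CPM after ozone and 148, 175 and 145 CPM after co-exposure, and fell by 0.48 and 0.58. With carbon black at day 4 Esam was -0.47 ± 0.11, with all exposed libraries below sham, and did not pass (adjusted p = 0.0811). Of the 5 junction and adhesion genes, 3 fell with ozone and 4 with co-exposure at day 1, and 4 and 5 did so at day 4.

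Receptors of the VEGF and Tie families, grouped here with the phosphatase gene Ptprb, all fell at day 4 of ozone and of co-exposure, 5 of 5 in each. Kdr encodes VEGF receptor 2, the main signalling receptor for VEGF-A. Its Day1 libraries held 472, 413, 451 and 416 CPM in sham, 369, 397, 338 and 374 CPM with carbon black, 317, 289, 325 and 317 CPM after ozone and 265, 350.02, 222 and 237 CPM after co-exposure. The carbon black libraries lay below all sham libraries, with a difference of -0.25 ± 0.13 that did not pass (adjusted p = 0.543). At day 4 Kdr held 458, 416 and 374 CPM in sham, 299, 292 and 288 CPM after ozone and 249, 193 and 137 CPM after co-exposure. The changes were -0.49 ± 0.13 and -0.71 ± 0.13 at day 1 and -0.50 ± 0.15 and -1.11 ± 0.15 at day 4 for ozone and co-exposure (adjusted p = 0.0134, 0.000394, 0.0171 and 3.47e-06). The Day4 ozone call was lost without Sham Day4 replicate 1, or without O3 Day4 replicate 2 or 3 (adjusted p between 0.0512 and 0.0742). Flt1, VEGF receptor 1, which binds VEGF-A tightly and signals weakly, lay at -0.01 ± 0.12 and 0.04 ± 0.12 at day 1 and fell at day 4 by 0.56 and 0.62.

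Tek encodes TIE2, the receptor for angiopoietins (chromosome 4, 94739289 to 94874976). At day 4 its libraries held 448, 329 and 309 CPM in sham, 412, 416 and 316 CPM with carbon black, 214, 228 and 215 CPM after ozone and 206, 134 and 108 CPM after co-exposure. The ozone libraries lay closely together below sham, and the co-exposure libraries reached lower. The changes were -0.72 ± 0.17 (adjusted p = 0.00363) and -1.28 ± 0.18 (adjusted p = 3.89e-06). At day 1 they were -0.14 ± 0.15 and -0.29 ± 0.15, neither past the threshold. Its partner receptor Tie1 fell in all 4 comparisons, by 0.39 and 0.45 at day 1 and by 0.65 and 0.97 at day 4. Its Day1 ozone call was lost in 5 of 16 settings, among them without Sham Day1 replicate 1 or 3 or O3 Day1 replicate 2 or 4 (adjusted p up to 0.096). Ptprb, a phosphatase that restrains TIE2 and VE-cadherin signalling, lay at 0.07 and -0.09 at day 1 and fell by 0.87 and 1.24 at day 4.

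**Figure D2:**
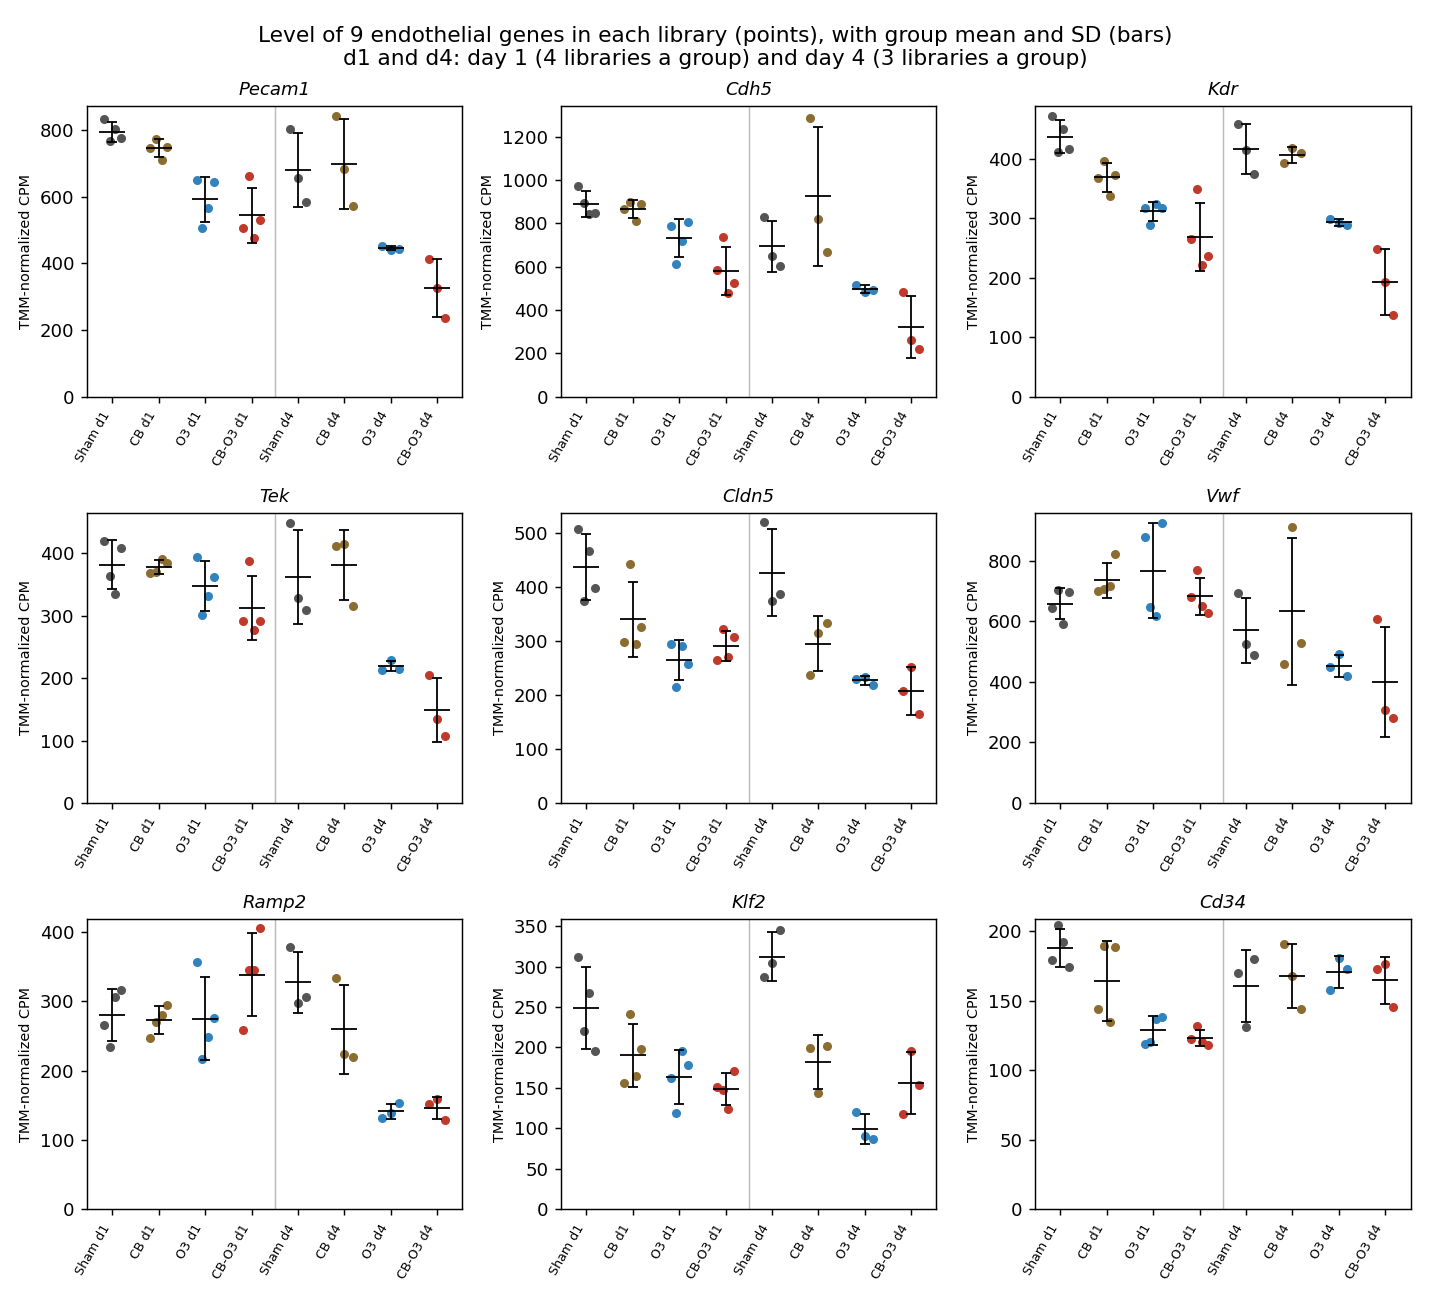
TMM-normalized CPM of 9 endothelial genes in each of 28 libraries (points) with the group mean and SD (bars), by group. Pecam1, Cdh5, Kdr and Tek are lowest in the CB-O3 group of day 4, Klf2 in the O3 group of day 4, and Cd34 in the ozone and co-exposure groups of day 1.

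BMP receptor genes, whose products receive BMP9 and BMP10 from the circulation, did not pass at day 1, while Tmem100, grouped with them here, did. Eng, the coreceptor endoglin, held 677, 473 and 416 CPM in Day4 sham, 305, 333 and 293 CPM after ozone and 282, 182 and 164 CPM after co-exposure. Its change was -0.75 ± 0.19 after ozone (adjusted p = 0.00502) and -1.32 ± 0.19 after co-exposure (adjusted p = 7.16e-06), against -0.03 ± 0.16 and -0.16 ± 0.16 at day 1. The ozone call was lost without Sham Day4 replicate 1 (adjusted p = 0.0585). The type I receptor gene Acvrl1 (ALK1) fell by 0.70 and 1.13 at day 4. The type II receptor gene Bmpr2, which other lung cells express too, was -0.58 ± 0.22 after 4 ozone exposures (adjusted p = 0.0626) and fell by 0.98 after co-exposure. Tmem100, a membrane protein gene downstream of ALK1, fell in all 4 comparisons, by 0.56 and 0.57 at day 1 and 0.72 and 1.16 at day 4, and its Day1 ozone call was lost with an exonic length offset (adjusted p = 0.062) and without O3 Day1 replicate 2 (adjusted p = 0.0507).

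Among receptors that couple to G proteins and adhesion receptors of that class, Ramp2 and Calcrl encode the parts of the adrenomedullin receptor. Both were called after 4 co-exposures and only Ramp2 after 4 ozone exposures, a difference not itself tested. Ramp2, the accessory subunit (chromosome 11, 101246028 to 101259546), held 265, 234, 306 and 316 CPM in Day1 sham, 357, 217, 249 and 276 CPM after ozone and 258, 346, 345 and 405 CPM after co-exposure. These ranges overlapped. At day 4 it held 378, 298 and 306 CPM in sham, 334, 224 and 220.4 CPM with carbon black, 132, 139.5 and 153 CPM after ozone and 151, 159 and 128 CPM after co-exposure. The Day4 changes of -1.21 ± 0.18 (adjusted p = 1.51e-05) and -1.16 ± 0.18 (adjusted p = 1.29e-05) were close to each other, and co-exposure minus ozone was 0.05 ± 0.17 with a 95% interval from -0.31 to 0.41. Calcrl, the receptor subunit, was -0.32 ± 0.23 after ozone (adjusted p = 0.369) and -0.69 ± 0.24 after co-exposure (adjusted p = 0.0258), a call lost in 5 of 14 settings, among them without Sham Day4 replicate 1 or CB-O3 Day4 replicate 2 or 3 (adjusted p up to 0.215). S1pr1 encodes the sphingosine-1-phosphate receptor of endothelium and lymphocytes. It held 347, 321 and 294 CPM in Day4 sham, 179, 192 and 184 CPM after ozone and 163, 117 and 105 CPM after co-exposure, a fall of 0.79 and 1.32. S1pr1 had also fallen after 1 co-exposure, by 0.59 ± 0.14 (adjusted p = 0.00362). The adhesion receptor gene Adgrf5, which alveolar type 2 cells also use, fell by 0.63 and 1.05 at day 4, with an ozone call lost without Sham Day4 replicate 1 or any one ozone library (adjusted p up to 0.0834). Adgrl4 was -0.65 ± 0.24 after ozone (adjusted p = 0.0611) and fell by 1.21 after co-exposure.

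The surface glycoproteins differed widely among themselves at day 4, from -0.97 to 0.09 after ozone and from -1.31 to 0.04 after co-exposure. Robo4, an endothelial receptor that stabilizes vessels, had the smallest p of all members after 4 co-exposures. Its Day4 libraries held 89.0, 79.7 and 68.0 CPM in sham, 49.98, 49.3 and 49.6 CPM after ozone and 41.4, 31.1 and 28.1 CPM after co-exposure, 3 levels without overlap. The change was -0.67 ± 0.11 after ozone (adjusted p = 0.000121) and -1.23 ± 0.12 after co-exposure (adjusted p = 1.49e-08). The lectin genes Clec14a and Clec1a lay at -0.03 and -0.06 after 1 exposure to ozone and fell by 0.97 and 0.95 after 4, and by 1.31 and 1.30 after 4 co-exposures. Podxl, a sialomucin gene that mesothelial cells also express, was -0.27 ± 0.18 after 4 ozone exposures and fell by 0.69 after 4 co-exposures, a call lost with only the compared groups (adjusted p = 0.0693) and without CB-O3 Day4 replicate 3 (adjusted p = 0.0502).

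Cd34 and Emcn, sialomucins of the endothelial surface, fell at day 1 after ozone and co-exposure, and Cd34 lay at the sham level at day 4. Cd34 (chromosome 1, 194938819 to 194961279) held 179.6, 205, 192 and 175 CPM in Day1 sham, 119, 120.5, 137 and 138 CPM after ozone and 122, 132, 120.3 and 118 CPM after co-exposure, without overlap. At day 4 it held 170.03, 131 and 180.2 CPM in sham, 158, 181 and 173 CPM after ozone and 173, 176 and 145 CPM after co-exposure, with overlapping ranges. The changes were -0.54 ± 0.11 (adjusted p = 0.00207) and -0.61 ± 0.11 (adjusted p = 0.000436) at day 1, and 0.09 ± 0.13 and 0.04 ± 0.13 at day 4. Emcn, the endomucin gene, fell by 0.62 and 0.71 at day 1, and the ozone call was lost without the 4 libraries with muscle RNA (adjusted p = 0.0608). At day 4 it held 42.2, 54.5 and 59.2 CPM in sham, 36.2, 37.5 and 38.9 CPM after ozone and 39.5, 41.03 and 31.2 CPM after co-exposure. These values gave -0.47 ± 0.18 (adjusted p = 0.0589) and -0.48 ± 0.18 (adjusted p = 0.0371), and the latter call was lost in 9 of 14 settings, with a replicate block (adjusted p = 0.0618) and without Sham Day4 replicate 2 or 3 or CB-O3 Day4 replicate 1 or 3 among them (adjusted p up to 0.17).

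Secreted products did not move together. Egfl7, a secreted factor of endothelium, was the only member that fell after carbon black. Its Day4 libraries held 359, 409.7 and 348 CPM in sham, 224, 214 and 264 CPM with carbon black, 200.2, 212 and 197 CPM after ozone and 149, 229.4 and 172 CPM after co-exposure. All exposed libraries lay below sham. Carbon black gave -0.67 ± 0.14 (adjusted p = 0.0466), a call lost in 10 of 14 alternative settings, where the adjusted p rose to at most 0.252, and ozone and co-exposure gave -0.87 ± 0.14 and -1.02 ± 0.15 (adjusted p = 8.37e-05 and 5.8e-06). Mmrn2, a matrix protein of endothelium, fell at day 1 by 0.64 and 0.55, was -0.29 ± 0.15 after 4 ozone exposures (adjusted p = 0.179) and fell by 0.44 after 4 co-exposures. The last call was lost without Sham Day4 replicate 1 or 3 or CB-O3 Day4 replicate 3 (adjusted p up to 0.136). Vwf, the carrier of clotting factor VIII that endothelium and platelets store, passed in none of the 6 comparisons with sham. Its Day4 libraries held 693, 526 and 489.8 CPM in sham, 449.96, 492 and 419 CPM after ozone and 607, 308 and 281 CPM after co-exposure, and the co-exposure change was -0.51 ± 0.24 (adjusted p = 0.0934).

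Transcription factor genes gave the largest single fall. Klf2, which blood flow induces in endothelium and which T lymphocytes also express, held 287, 304 and 346 CPM in Day4 sham, 199.9, 143 and 202 CPM with carbon black, 119.8, 90.9 and 86.8 CPM after ozone and 118, 196 and 154 CPM after co-exposure. The 3 sham libraries were the highest and the ozone libraries reached lowest. At day 1 it held 311, 221, 267 and 196 CPM in sham, 162, 119, 196 and 179 CPM after ozone and 151, 148, 124 and 172 CPM after co-exposure. The changes were -0.60 ± 0.18 (adjusted p = 0.0281) and -0.74 ± 0.18 (adjusted p = 0.00475) at day 1, and -1.66 ± 0.21 (adjusted p = 3.4e-06) and -1.003 ± 0.21 (adjusted p = 0.000559) at day 4. The Day1 ozone call was lost in 9 of 16 settings, a replicate block (adjusted p = 0.0602) and the fits without Sham Day1 replicate 1 or 3 or O3 Day1 replicate 1, 2 or 4 among them (adjusted p up to 0.113). Carbon black at day 4 gave -0.78 ± 0.21 (adjusted p = 0.114).

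The ETS factor gene Erg, a keeper of endothelial identity, held 99.8, 104 and 109 CPM in Day4 sham, 55.4, 55.9 and 56.8 CPM after ozone and 57.5, 54.2 and 45.5 CPM after co-exposure, and fell by 0.90 and 0.99. Fli1, an ETS factor gene shared with blood cells, was -0.35 ± 0.20 after ozone (adjusted p = 0.231) and -0.65 ± 0.21 after co-exposure (adjusted p = 0.0174), a call lost without Sham Day4 replicate 1 or CB-O3 Day4 replicate 2 or 3 (adjusted p up to 0.0889). Of the SOXF factor genes, Sox18 held 107, 76.2 and 83.5 CPM in Day4 sham, 49.98, 54.4 and 53.3 CPM after ozone and 50.8, 47.4 and 42.6 CPM after co-exposure, and fell by 0.76 and 0.92. Sox17 fell by 0.50 and 0.75, and Sox7 was -0.12 ± 0.21 after ozone (adjusted p = 0.736) and fell by 0.65 after co-exposure. The Sox17 ozone call was lost without any one of the 6 sham and ozone libraries (adjusted p up to 0.155), and the Sox7 call in 5 of 14 settings, among them without Sham Day4 replicate 1 or CB-O3 Day4 replicate 2 or 3 (adjusted p up to 0.208). At day 1 none of the SOXF genes passed after ozone or co-exposure, with values from -0.03 to 0.31. Of the cytoplasmic members, Nos3, the endothelial nitric oxide synthase gene, was -0.46 ± 0.17 after 4 ozone exposures (adjusted p = 0.059) and fell by 0.52 after co-exposure, a call lost with only the compared groups and without Sham Day4 replicate 1 or CB-O3 Day4 replicate 2 (adjusted p up to 0.146). Ushbp1 held 105, 134 and 109 CPM in Day4 sham, 63.8, 72.8 and 54.3 CPM after ozone and 45.5, 59.6 and 44.3 CPM after co-exposure, and fell by 0.86 and 1.22.

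Since most members moved together, the DNA just before their starts was searched for the letters that ETS factors such as ERG and FLI1 are known to bind. RefSeq promoters of build GRCm38.p6 matched 18 of the 36 members by symbol, with 23 starts, and the 250 bases before each start were read on both strands. The letters CAGGAA or their complement TTCCTG stood in 13 of 23 windows (56.5%), and in 25.7% of 32851 windows of all genes. Some members have more than 1 start, so windows are not independent. By gene, 11 of the 18 members held these letters in at least 1 window, and the share by gene over all genes is not given. The other ETS letters, CCGGAA or TTCCGG, stood in 2 of 23 windows (8.70%) and in 12.0% of all windows. The SOX letters ACAAT or ATTGT were in 34.8% of member windows and 27.7% of all. The KLF letters CACCC or GGGTG were in 56.5% and 52.0%. The 2 ETS motifs share GGAA at their end, so 1 place can hold only 1 of them, and no other pair of motifs shares such a core. Shown are 4 windows, 5′ to 3′ on the gene's strand, with the letters of either ETS motif in capitals on either strand: Tek, which passed at day 4 and not at day 1, Emcn and Cd34, which fell at day 1, and Cldn5, which fell at both days and held none of these letters.
Tek (chr4:94739039-94739288, plus strand): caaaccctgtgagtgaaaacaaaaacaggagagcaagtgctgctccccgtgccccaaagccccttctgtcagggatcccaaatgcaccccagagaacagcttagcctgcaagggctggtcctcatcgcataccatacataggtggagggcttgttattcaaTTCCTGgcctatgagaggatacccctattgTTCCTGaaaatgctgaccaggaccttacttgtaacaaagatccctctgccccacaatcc
Emcn (chr3:137340828-137341077, plus strand): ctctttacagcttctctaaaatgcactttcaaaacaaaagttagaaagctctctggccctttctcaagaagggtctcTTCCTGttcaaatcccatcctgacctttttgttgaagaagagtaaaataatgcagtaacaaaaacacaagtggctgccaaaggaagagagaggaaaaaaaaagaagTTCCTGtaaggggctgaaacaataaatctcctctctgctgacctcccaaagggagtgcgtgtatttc
Cd34 (chr1:194938571-194938820, plus strand): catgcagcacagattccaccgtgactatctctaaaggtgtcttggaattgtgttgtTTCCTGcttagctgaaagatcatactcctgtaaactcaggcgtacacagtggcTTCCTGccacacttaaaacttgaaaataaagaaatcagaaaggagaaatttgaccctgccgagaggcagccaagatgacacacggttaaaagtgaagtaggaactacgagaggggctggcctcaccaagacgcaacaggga
Cldn5 (chr16:18776597-18776846, plus strand): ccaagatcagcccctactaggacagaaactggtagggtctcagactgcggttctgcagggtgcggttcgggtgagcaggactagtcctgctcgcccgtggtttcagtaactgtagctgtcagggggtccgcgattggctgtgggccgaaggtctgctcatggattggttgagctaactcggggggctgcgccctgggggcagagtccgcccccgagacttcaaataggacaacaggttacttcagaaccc
In the windows of Tek, Emcn and Cd34 the letters occurred 2 times each. A match of letters is a description of the sequence and was set against no measure of binding.

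The difference between the 4-exposure and the 1-exposure change was itself tested. After co-exposure 18 members had a more negative change at day 4 than at day 1 and 1 a more positive one, where 10.2% of all genes differed in either direction. After ozone 5 members had a more negative change and 1 a more positive one, against 4.24% of all genes, and the ozone count was 18 in a fit of the compared groups alone. Leaving out 1 library moved the total for co-exposure between 13 (without CB-O3 Day4 replicate 3) and 30 (without CB-O3 Day4 replicate 1), and that for ozone between 2 (without O3 Day1 replicate 1) and 7. For these fits and that of the compared groups alone, no share of all genes is given. For carbon black 0 members differed between days in edgeR and in DESeq2, where 0.094% of all genes were called. At an unadjusted p under 0.05 there were 3 members, and a gene at an edgeR p of 0.0636 ranked 1501 of 14887 by p. The most negative day difference was that of Ramp2, at -1.43 ± 0.23 for co-exposure (adjusted p = 0.000211) and -1.18 ± 0.23 for ozone (adjusted p = 0.00306). Sox18 had -1.12 ± 0.18 and -0.72 ± 0.17 (adjusted p = 0.000179 and 0.0163). Cd34 was the member with the more positive change in both, at 0.65 ± 0.17 and 0.63 ± 0.17 (adjusted p = 0.0169 and 0.0338). Both exposures share the sham libraries, so these values are not independent. Between the sham groups of day 4 and day 1, 0 members passed in edgeR and in DESeq2, where 0% of all genes were called, and the median member difference was -0.08. At an unadjusted p under 0.05 there was 1 member, and a gene at an edgeR p of 0.0495 ranked 1452 of 14887 by p.

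**Figure D3:**
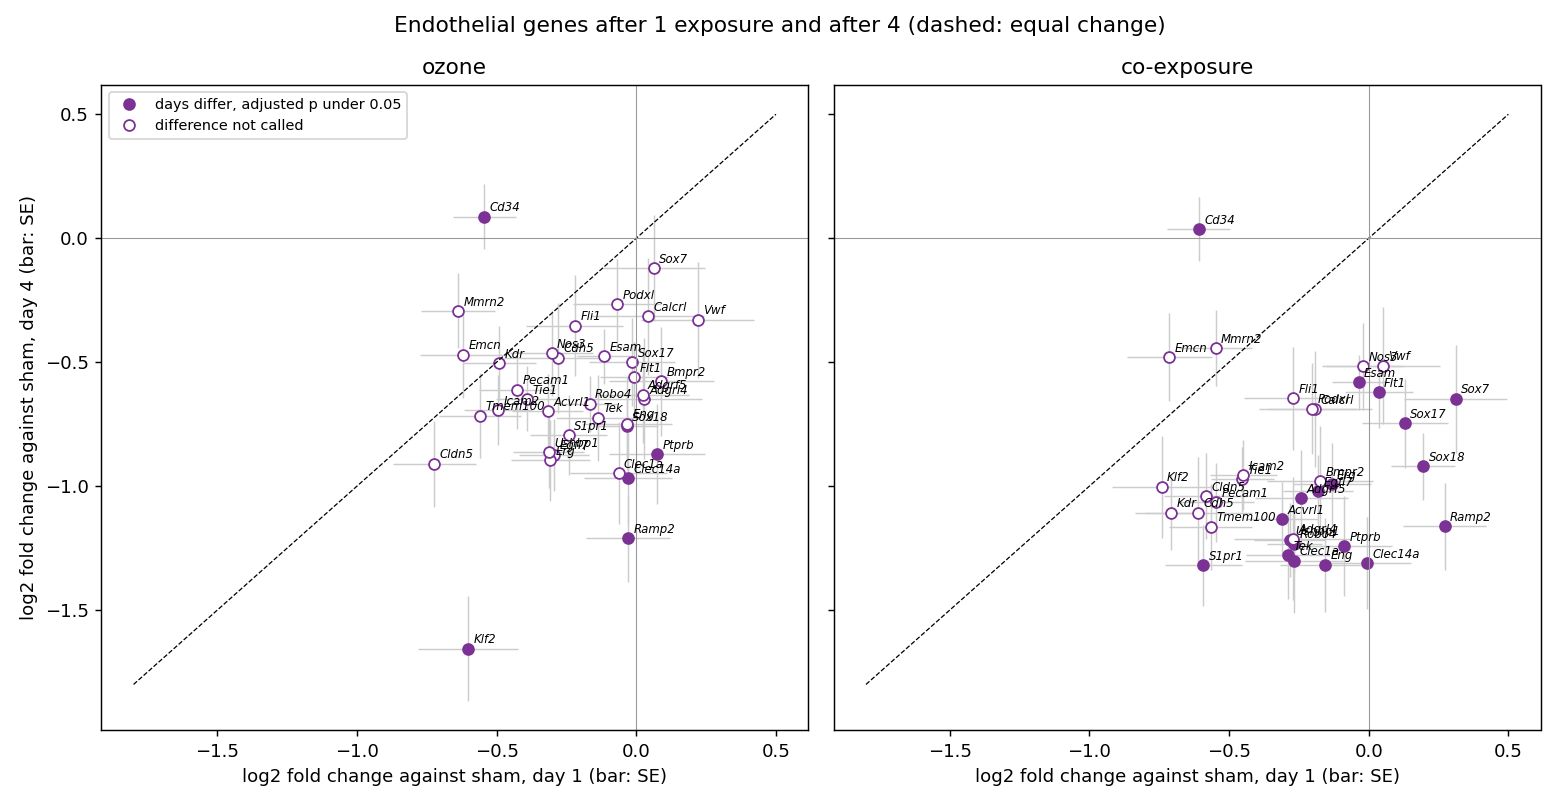
Log2 fold change against sham of each endothelial gene after 1 exposure (horizontal axis) and after 4 (vertical axis), with standard errors as bars, for ozone and for co-exposure; filled points differed between days. Most genes lie below the dashed line of equal change, and Cd34 alone of the filled points lies above it.

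Whether adding carbon black to ozone changed the members was asked by comparing co-exposure with ozone of the same day. At day 1 there were 0 members called in edgeR and in DESeq2, where 0% of all genes were called, and the median was -0.06. At an unadjusted p under 0.05 there was 1 member, and a gene at an edgeR p of 0.0537 ranked 2462 of 14887 by p. At day 4 there were again 0 called in edgeR, where 0% of all genes were called. At an unadjusted p under 0.05 there were 16 members, and a gene at an edgeR p of 0.0516 ranked 3050 of 14887 by p. The median of the members was -0.35, 34 of 36 members were lower after co-exposure, and 13 were lower without overlap, where 9.75% of all genes lay so. DESeq2 called 4, with Kdr, Robo4 and S1pr1 lower and Klf2 higher after co-exposure, and a fit with a replicate block called 3, namely Cdh5, Kdr and Robo4. For DESeq2 and the block fit no share of all genes is given, so these counts cannot be set against a background. Without CB-O3 Day4 replicate 1 edgeR called 20 members (19 lower and 1 higher, median -0.51), and without CB-O3 Day4 replicate 3 it called 0 (median -0.19). The share of all genes called in these 2 fits is not given. Replicates 2 and 3, which the first of them keeps, had length differences (longest minus shortest decile, described below) of -0.69 each, against -0.06 in replicate 1. The summed level of the 36 members shows how the 3 co-exposure libraries spread: 8456, 6431 and 5101 CPM in the CB-O3 libraries of day 4, against 8411, 8649 and 8373 CPM after ozone and 15227, 12351 and 11786 CPM in sham.

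The 2 members not lower were Ramp2, given above, and Klf2. Klf2 was 0.65 ± 0.21 higher after co-exposure than after ozone (adjusted p = 0.11). The interaction, which asks whether the co-exposure change differs from the sum of both single changes on the log2 scale, called Klf2 at day 4, at 1.44 ± 0.29 (adjusted p = 0.0332), and called no other member, where 1.37% of all genes were called. The number of members called ran from 0 to 16 when 1 library was left out, with 16 without CB-O3 Day4 replicate 1, and it was 0 with an exonic length offset. No share of all genes is given for these alternative fits. At day 1 the interaction called 0 members in edgeR and in DESeq2, where 1.46% of all genes were called. At an unadjusted p under 0.05 there were 4 members, and a gene at an edgeR p of 0.0528 ranked 2970 of 14887 by p. Against carbon black of the same day, co-exposure had 30 members lower at day 4, where 18.9% of all genes were lower, and the 6 not called were Egfl7, Esam, Cd34, Sox17, Klf2 and Nos3. At day 1 there were 6 lower, where 12.7% of all genes were lower, led by S1pr1 at -0.64 ± 0.14 (adjusted p = 0.00131), and Sox18 was higher at 0.34 ± 0.11 (adjusted p = 0.0294), against 13.1% of all genes higher. That total of 7 was 3 without CB-O3 Day1 replicate 3.

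Transcript length bears on the co-exposure groups and on other comparisons with sham. In CB-O3 Day4 replicates 2 and 3 the median log2 ratio to the mean of all libraries differed by -0.69 each between the longest and the shortest decile of genes (longest minus shortest). The same difference was -0.06 in replicate 1, between -0.37 and 0.13 in CB-O3 Day1 and between -0.25 and 0.32 in all libraries outside the CB-O3 groups. Across the genes tested, the Day4 co-exposure change fell with exonic length (Spearman's rho = -0.20, genes not being independent), from a median of 0.24 in the shortest decile to -0.14 in the longest, and the co-exposure against ozone change did so more (rho = -0.34). For ozone at day 4 rho was 0.02. Against sham, the change rose with length for carbon black at day 1 and day 4 (rho = 0.21 each). It rose for ozone at day 1 as well (rho = 0.15), and for co-exposure at day 1 rho was -0.17. Exonic lengths of the members ran from 1416 bases (Cldn5) to 17983 bases (Bmpr2) with a median of 4578. After 4 co-exposures the 18 shorter and the 18 longer members had the same median of -1.01, with 18 and 16 called, and the 5 shortest members, Cldn5, Sox18, Tmem100, Klf2 and Icam2, had changes between -1.16 and -0.92. Measured from the median of all genes of their own length decile, the members lay at a median of -1.05. With a smooth offset for length in every library 33 members were called after 4 co-exposures and the median was -1.03. The share of all genes called with the offset is not given. The co-exposure against ozone median at day 4 went from -0.35 to -0.31 with the offset, and from -0.21 in the shorter to -0.37 in the longer members without it. Against sham, the shorter and the longer members had medians of -0.15 and 0.09 for carbon black at day 4. They had -0.29 and -0.07 for ozone at day 1.

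**Figure D4:**
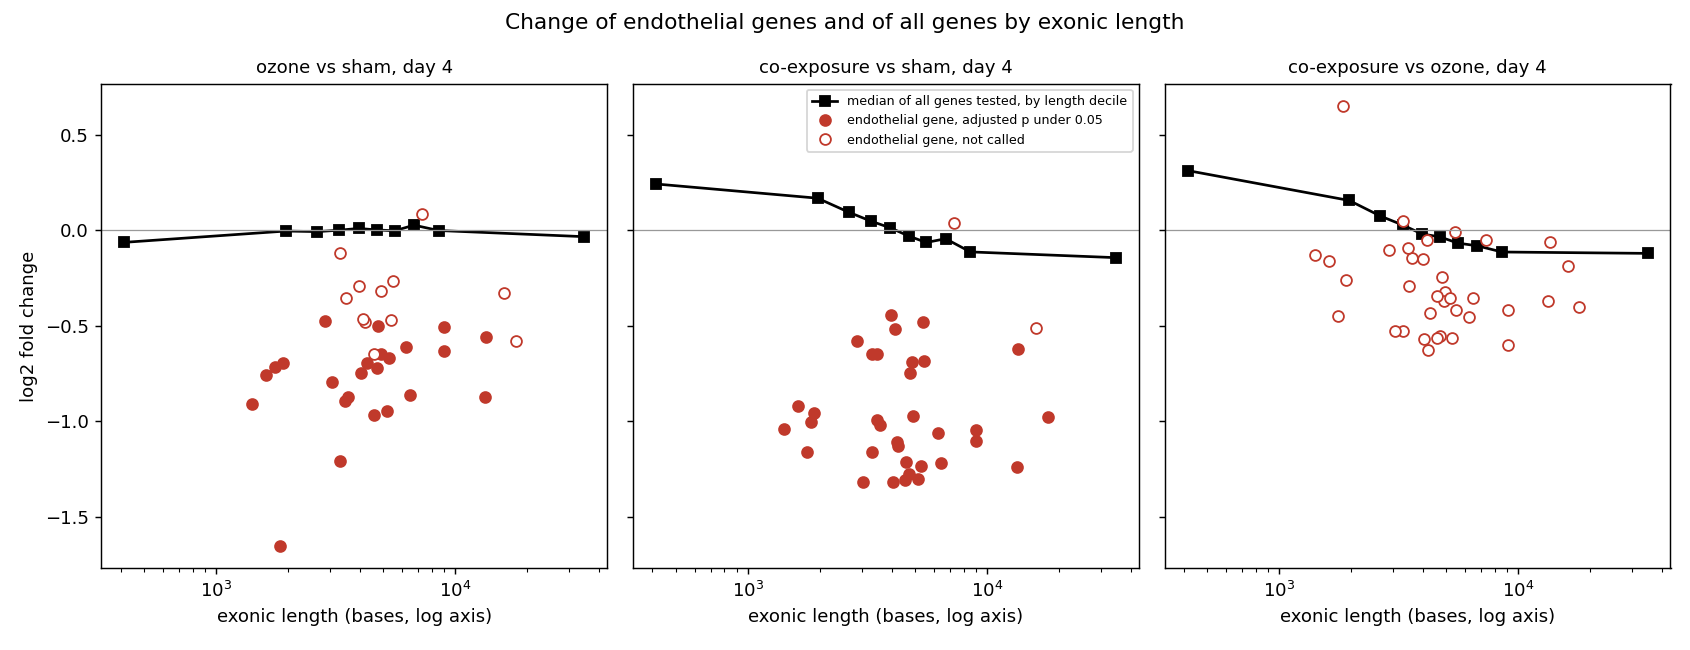
Log2 fold change of the endothelial genes (circles) and median of all genes tested by decile of exonic length (squares), against exonic length on a log axis, for ozone and co-exposure against sham and for co-exposure against ozone at day 4. The black line falls with length in both co-exposure panels and is flat for ozone, and 35 of 36 endothelial genes lie below it in each comparison with sham and 31 in the last panel.

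Levels between members can be compared only per length. In Day1 sham the order by CPM per kilobase of exon (RPKM) began with Cldn5 (309 ± 43), Tmem100 (257), Calcrl (253) and Cdh5 (211) and ended with Emcn (11.2), Sox17 (7.58) and Nos3 (7.29). The ranges of neighbours in that order overlapped in 26 of 35 pairs, so only the coarse order stands. Over the 8 groups CB-O3 Day4 had the lowest mean level for 31 of 36 members and O3 Day4 the second lowest for 29. The spread within groups was unequal: the median coefficient of variation of the members was 3.76% in O3 Day4, 8.06% in Sham Day1, 13.9% in Sham Day4 and 22.9% in CB-O3 Day4.

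Other vascular lists, also chosen with earlier results of these data known, were mostly lower at day 4, the activation list excepted. Their counts are read against 9.07% of all genes lower and 11.7% higher after ozone, and 16.3% lower and 17.7% higher after co-exposure. Of 38 further endothelial genes 23 fell and 1 rose after ozone, and 31 fell after co-exposure, with medians of -0.51 and -0.77; Gata2, a transcription factor gene of endothelium and blood progenitors, fell by 1.36 and 1.76. Of 16 genes of alveolar capillaries 12 and 14 fell, among them the endothelin receptor gene Ednrb (by 0.95 and 1.27). Of 16 ligand genes for VEGF, angiopoietin and related receptors, 5 and 8 fell and none rose; Angpt2 fell by 0.88 and 1.23, and Vegfa, the ligand of Kdr and Flt1, fell by 0.71 after co-exposure. Of 23 genes of BMP and Notch signalling 13 fell and 1 rose in each, led by the ligand gene Bmp6 (by 0.95 and 1.46), the inhibitor gene Smad6 (by 0.77 and 1.22) and the Notch target Hey1 (by 1.06 and 1.36). Of 14 tested genes of endothelial activation 1 fell and 3 rose after ozone and 4 fell and 3 rose after co-exposure. The adhesion receptor gene Icam1, which epithelium and leukocytes share, rose by 0.71 and 0.55, and the anticoagulant gene Thbd fell by 0.77 and 1.13. Of 14 genes of arteries and veins 5 fell after ozone, and 7 fell and 2 rose after co-exposure. Their summed level overlapped between groups, at 1530 to 2162 CPM in Day4 sham, 1583 to 1888 CPM after ozone and 1589 to 2153 CPM after co-exposure. Of 7 lymphatic genes 2 fell and 1 rose after ozone and 4 fell and 1 rose after co-exposure, where the gene that rose was Pdpn, also a gene of alveolar type 1 cells.

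Cell types around the endothelium were read against the same shares of all genes. Pericyte and smooth muscle genes fell in 4 of 11 after ozone and 4 of 11 after co-exposure, with Pdgfrb at -0.66 and -1.10. Alveolar type 1 genes mostly did not pass, with 2 of 9 higher after ozone, and 2 higher and 1 lower after co-exposure. Their summed level ran from 7445 to 8370.3 CPM in Day4 sham, 8230.2 to 9018 CPM after ozone and 7753 to 8247 CPM after co-exposure. Alveolar type 2 genes had 1 higher and 1 lower of 9 in each. Lymphocyte genes, which bear on Klf2, S1pr1 and Fli1, fell in 8 and 10 of 12, and their summed level went from 157.5 to 220.2 CPM in sham to between 79.2 and 112 CPM after ozone and between 63.7 and 81.3 CPM after co-exposure. Platelet genes, which bear on Vwf, Pecam1 and Esam, fell in 6 and 4 of 8, and erythrocyte genes in 5 and 6 of 7. All 12 cell cycle genes rose in both. Fibroblast genes had 3 lower and 3 higher of 9 after ozone and 4 lower and 2 higher after co-exposure, mesothelial genes 1 lower and 1 higher of 5 in each, and monocyte and macrophage genes 3 higher of 10 after ozone and 3 higher and 1 lower after co-exposure. Of 9 neutrophil genes 1 rose, after co-exposure, and no skeletal muscle or adipose gene passed in edgeR in either, with 1 adipose gene at an unadjusted p under 0.05 after ozone. No member of the platelet, lymphocyte, erythrocyte or alveolar lists was at 0 in all libraries of a Day4 group. Heart muscle genes moved with the members after ozone: 5 of 6 fell, among them Tnnt2 by 2.01 and Myl7 by 2.04, and their summed level was 384 to 747 CPM in Day4 sham and 141 to 191 CPM after ozone. After co-exposure 0 of the 6 passed in edgeR, with 0 at an unadjusted p under 0.05, and the sum was 167 to 683 CPM. The parts that blood cells and heart muscle had in the member values were not tested.

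**Figure D5:**
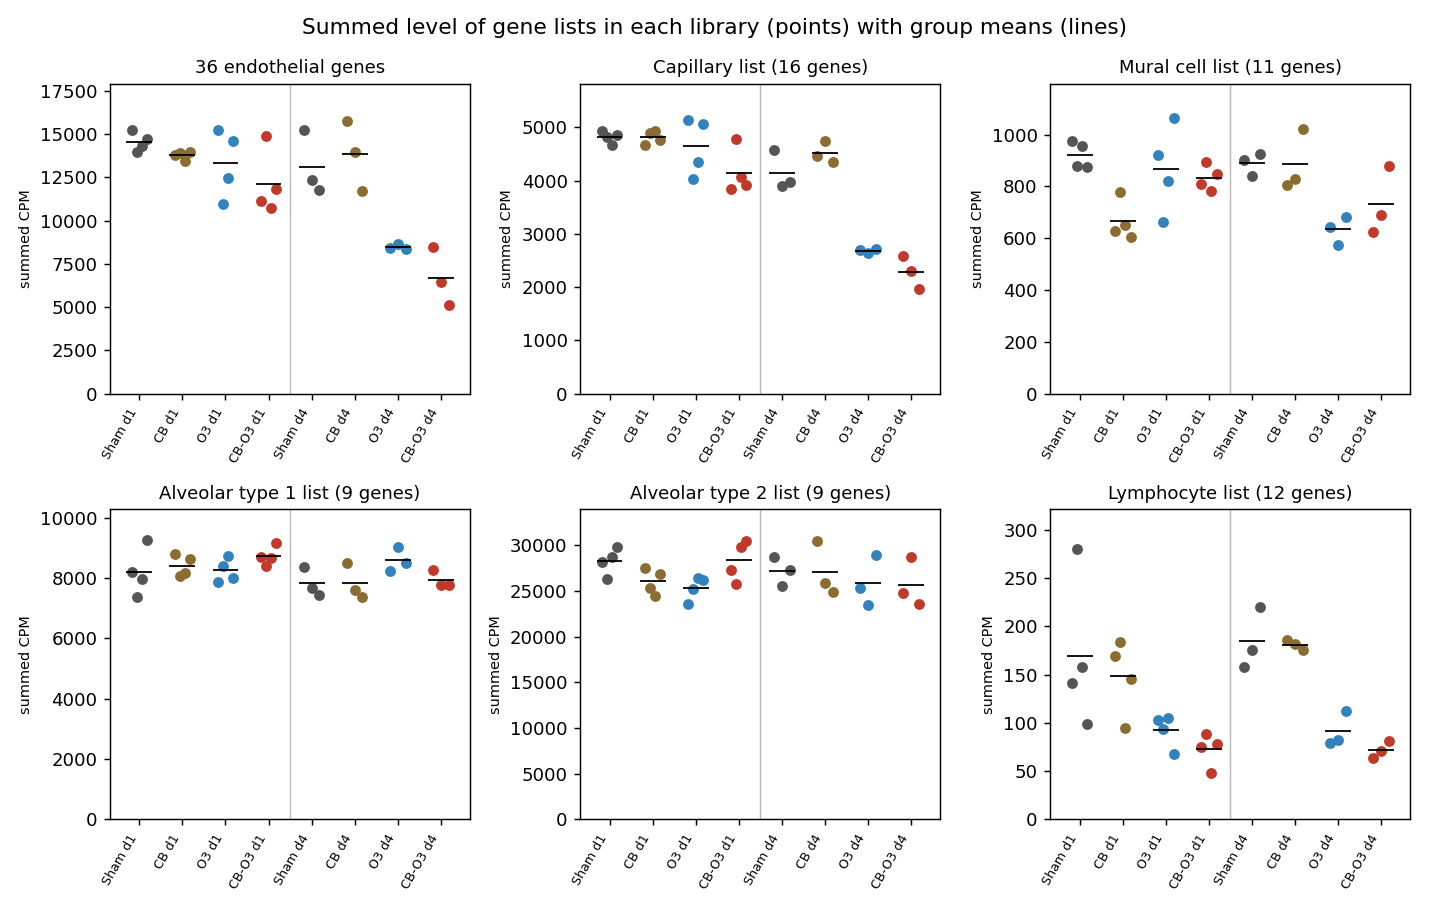
Summed CPM of the 36 endothelial genes and of 5 other gene lists in each of 28 libraries (points) with the group means (lines), by group. The endothelial and capillary sums drop in the O3 and CB-O3 groups of day 4 while both alveolar sums stay in the range of the other groups, and the lymphocyte sum is already lower in the O3 and CB-O3 groups of day 1.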

How the data were processed

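Reads were quantified by the authors with Salmon 1.1.0 in its mapping-based mode, per the labels. The submitters' processing notes also list mm10, R 3.6.3 and DESeq2. The deposited values are estimated counts per gene, not normalized, of which 17.7% were not whole, and they were rounded here. No source used here says how transcripts were summed to genes.

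Counts were tested with edgeR 4.0.16 (R 4.3.3), quasi-likelihood F test, TMM factors from 0.902 to 1.05 and filterByExpr, on all 28 libraries in 1 fit (14887 genes). Symbols, positions and exonic lengths came from GENCODE M21 (GRCm38), which held 35505 identifiers. Alternatives were DESeq2 1.42.0, median-of-ratios scaling, no filter, only the compared groups, a replicate block, a lowess offset for length (span 0.3) and leaving out libraries. On simulated data of 4 co-exposures against sham (14887 genes), 29% of 1.5-fold and 73% of 2-fold changes were recovered and 8.11% of calls were false. Each fold was given to 100 genes, whereas 2434 genes were called lower in the data, and other comparisons were not simulated. With an imposed length trend (Spearman's rho = -0.489, steeper than that of the data) 54% of calls were false without the length offset and 3.92% with it. That trend was imposed on every CB-O3 Day4 library alike. In the data the difference between longest and shortest decile was -0.69 in replicates 2 and 3 and -0.06 in replicate 1, so these rates need not hold for the data. In that comparison same-numbered libraries deviated together (correlations 0.352, 0.153 and 0.253), which is a hint from the data, since the labels tie no numbers to a shared batch or cage.

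Per-library values are given for members with 1 of the 3 smallest p in a comparison with sham or with ozone, plus 6 set ones, and for Eng and Erg, added after their values were seen. Genes outside the set come from 21 lists, up to 4 per list by p. The members and lists were chosen with earlier results of these data known.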

Additional observations from a re-analysis of the deposited data

Results flagged for a closer look

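Of 144 sets of 4 Day1 libraries, 7 had a library far from the other 3. That share is close to the 1 in 20 that chance alone gives, so the 7 are listed as a description only. CB-O3 Day1 replicate 2 was such a library for 4 genes: Tek at 388 CPM (next 292 CPM), Ptprb at 1473 CPM (next 956 CPM), Adgrf5 at 1743 CPM (next 1287 CPM) and Bmpr2 at 1088 CPM (next 644 CPM). It had the highest longest-minus-shortest length difference of its group, at 0.13, and its part was not tested. The other 3 were Vwf at 821 CPM in CB Day1 replicate 4 (next 717.5 CPM), Bmpr2 at 739 CPM, low, in CB Day1 replicate 2 (next 823 CPM), and Clec14a at 374 CPM in Sham Day1 replicate 4 (next 322.5 CPM).

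A further 26 results are tested differences between groups in the size of a change, each with edgeR's adjusted p. Klf2 had an interaction of carbon black and ozone of 1.44 at day 4 (adjusted p = 0.0332). For ozone, the change at day 4 minus that at day 1 was -1.18 for Ramp2, 0.63 for Cd34, -0.72 for Sox18, -1.05 for Klf2, -0.94 for Ptprb and -0.94 for Clec14a (adjusted p between 0.00306 and 0.0393).

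For co-exposure the same difference was -1.43 for Ramp2, -1.30 for Clec14a, -1.16 for Eng, -1.15 for Ptprb, -1.12 for Sox18 and -1.03 for Clec1a. It was -0.99 for Tek, -0.97 for Robo4, -0.96 for Sox7, -0.93 for Ushbp1, -0.88 for Sox17, -0.86 for Erg and -0.84 for Egfl7. It was -0.82 for Acvrl1, -0.81 for Adgrf5, -0.73 for S1pr1, -0.66 for Flt1 and -0.55 for Esam, and 0.65 for Cd34. The adjusted p-values for co-exposure lay between 0.000179 and 0.0411. Klf2 was not among them, at -0.26 ± 0.27 (adjusted p = 0.609).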

How the results depend on the processing

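Direction was followed for each member in the 6 comparisons with sham and in co-exposure against ozone, where no called result reversed, and in the other comparisons only the counts were. Shares of all genes called are given only for the edgeR fit of all 28 libraries, and not for the alternatives. Counts of members called that moved by over 1.5 times were as follows. For carbon black at day 1 (0), DESeq2 and the fit without the 4 libraries with skeletal muscle RNA, an alternative chosen after seeing the data, each gave 1. For carbon black at day 4 (1) it was 0 with median-of-ratios scaling, only the compared groups, a replicate block, a length offset and the block with the offset, 3 with DESeq2 and 4 without the muscle libraries. Ozone at day 1 (10) gave 6 without the muscle libraries. Co-exposure against ozone at day 4 (0) gave 4 with DESeq2 and 3 with a replicate block. The interaction at day 4 (1) gave 2 with DESeq2, 0 with only the compared groups or the length offset, 3 with a replicate block and 2 with block and offset. The day difference for ozone (6) gave 18 with only the compared groups.

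Leaving out 1 library gave 0 to 1 members for carbon black, 6 to 11 for ozone and 11 to 13 for co-exposure at day 1, and 0 to 3, 20 to 23 and 28 to 34 at day 4. Co-exposure against ozone gave 0 at day 1 and 0 to 20 at day 4, against carbon black 3 to 8 and 26 to 30, and the interaction 0 at day 1 and 0 to 16 at day 4. The day differences gave 0 for carbon black, 2 to 7 for ozone and 13 to 30 for co-exposure, and the sham groups 0. The causes were not tested. Calls kept under every alternative were 4 of 10 (ozone, day 1), 11 of 12 (co-exposure, day 1), 19 of 24 (ozone, day 4) and 27 of 34 (co-exposure, day 4).

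In the 6 comparisons with sham and in co-exposure against ozone, a replicate block ended 3 calls (Klf2 for ozone at day 1, Egfl7 for carbon black and Emcn for co-exposure at day 4) and added 7, with 33 members for co-exposure at day 4. Of 42 same-numbered pairs 12 correlated above 0.1 (range -0.25 to 0.479), and 14 of 28 libraries correlated best with their own number. Every same-numbered pair was above 0.1 in no other comparison with sham, with 3 of 4 for ozone at day 1, and the labels do not say what the numbers stand for. On simulated data of 4 co-exposures against sham 29% of 1.5-fold changes were recovered, and that rate need not hold for the other comparisons. A small change that did not pass the threshold may thus have been missed.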
